A study of Homo sapiens with 5 samples.

Results

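The genes described here are cytosolic chaperones and heat shock genes, together with their mitochondrial relatives. The list names 39 genes, and 36 of them had a probe that names no other gene, out of 18417 genes measured. HSF2, FKBP5 and AHSA1 had no such probe and were not analysed here. Membership was set by gene name and not by any measured value, although the list was drawn up with earlier results of these arrays known. Cells of the human leukemia line RS4.11, which carries a rearranged MLL gene, were given SB216763 at 10 uM for 20 h (3 arrays). SB216763 is a compound that blocks the activity of GSK-3 kinase. The control cells of the same line received the solvent DMSO for the same time (2 arrays). All material is from 1 cell line, and the labels do not say whether each array had a culture of its own. The p-values therefore rest on array-to-array spread, part or all of which may be technical.

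Molecular chaperones bind unfolded or partly folded proteins and keep them from aggregating. HSP70 proteins clasp short exposed stretches in a cycle driven by ATP. J-domain proteins (DNAJ) deliver clients and speed ATP hydrolysis, and HSP110 proteins act as exchange factors. HSP90 and its cochaperones take over late-folding clients such as kinases and steroid receptors, and the ring-shaped CCT complex folds actin and tubulin. The transcription factor HSF1 switches many of these genes on under heat or proteotoxic stress, by binding repeats of the unit GAA and its complement TTC. GSK-3 is one of the kinases known to phosphorylate HSF1.

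Chaperone transcripts tended to lower values in SB216763 cells. This was clearest in HSPA4L and HSPH1 of the HSP110 genes, stress-inducible HSP90 and its cochaperone FKBP4, some J-domain genes and mitochondrial HSPE1. Values are the authors' log2 expression values, and every difference is SB216763 minus control on that scale. Of the 36 genes, 9 fell and 0 rose (limma, Benjamini-Hochberg adjusted p under 0.05 over all genes), which is 25.0% lower, against 5.92% of all genes tested called lower and 7.21% called higher. At an unadjusted p under 0.05, 23 chaperone genes were lower and 0 higher, against 12.2% and 14.3% of all genes. Among the 7976 genes at least as bright as the dimmest member, 11.0% were called lower. The median difference of the 36 genes was -0.29, against 0.00 for all genes, and 31 of 36 differences were negative. The groups did not overlap, with SB216763 lower, for 27 of the 36 genes (75.0%), against 19.9% of all genes. All 36 were above background on all 5 arrays, background being the 95th percentile of 341 olfactory receptor genes on the same array.

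Leaving out either control array ended all 9 calls and nearly all calls among the 18417 genes, with 1 gene called without control replicate 1 and 0 without control replicate 2. The members called by limma numbered 0 without control replicate 1, where 22 (61.1%) had an unadjusted p under 0.05 and were lower, against 10.3% of all genes. They numbered 0 without control replicate 2 too, where 11 (30.6%) were lower by that unadjusted measure, against 8.98% of all genes. Without SB216763 replicate 1 limma called 5 lower (13.9%), against 2.46% of all genes. With all 5 arrays, a further 9 genes just missed the threshold, with adjusted p from 0.0523 to 0.0683 (HSPA8, HSPA14, STUB1, TCP1, CCT2, CCT5, CCT7, HSPB1 and BAG3), and the next gene after them had 0.0862. The count of members called lower was 18 to 21 with arrays centred on their medians, after quantile normalization, among genes above background, with a variance trend and with array weights. That is up to 58.3% of the members, and the share of all genes called lower in these settings was 7.51% to 11.7%, also above its 5.92%.

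**Figure D1:**
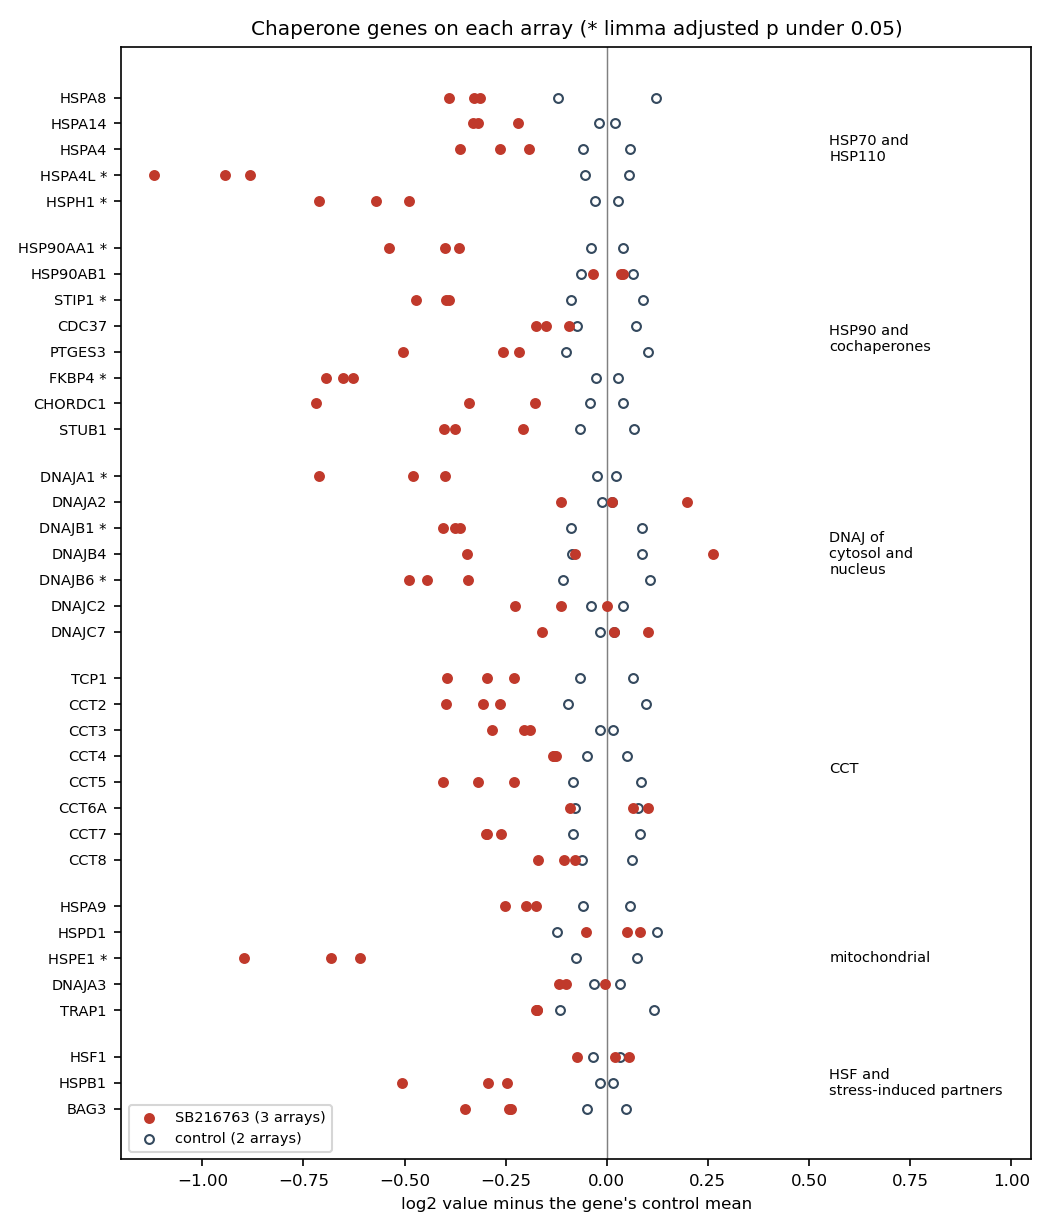
Each row is 1 chaperone gene, grouped by class, and the horizontal axis is the log2 value on an array minus the mean of that gene on the control arrays. Filled points are the 3 SB216763 arrays, open points the 2 control arrays, and stars mark the 9 genes with adjusted p under 0.05. HSPA4L, HSPE1 and FKBP4 lie farthest to the left, while HSP90AB1, HSPD1, HSF1 and CCT6A scatter around 0.

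The 5 arrays had like distributions, with medians of 6.77 to 6.84 on the log2 scale. Across probes, Pearson r was 0.992 to 0.996 among the SB216763 arrays, 0.994 between the control arrays and 0.989 to 0.991 between arrays of different groups. RS4.11 is generally regarded as a precursor B line. Of 8 measured genes that define B cell precursors, however, 4 were above background on no array (VPREB1, RAG1, DNTT and CD22). Another 3 were above background on all arrays (CD79B, PAX5 and IGLL1), with IGLL1 at 8.10 in SB216763 cells and 8.43 in control cells. All 7 measured myeloid markers were above background on every array. MPO (6.21 in SB216763 cells, 6.44 in control cells) and CD14 (6.34 and 6.35) were close to the background of 5.98 to 6.19. Of the 7 myeloid markers, 2 rose, lysozyme (LYZ) and CSF3R. LYZ was at 12.70 in SB216763 cells and 11.92 in control cells, and CSF3R at 8.96 and 7.73. MPO, CD14, ELANE, CSF1R and ITGAM did not pass, with differences of -0.23, -0.003, -0.05, 0.11 and 0.27. The mean log2 level of the myeloid list was 8.28 to 8.39 on the SB216763 arrays and 7.99 to 8.06 on the control arrays. That of the B cell precursor list was 5.92 to 6.12 on the SB216763 arrays and 5.94 to 5.96 on the control arrays. Of 6 T and NK cell markers, 5 were above background on no array, and NKG7 rose. Of 3 measured erythroid markers, 2 (KLF1 and EPOR) were above background on all arrays, and 0 passed the test. The part of these markers in the chaperone differences was not tested, and fewer cells of a type and less RNA per cell cannot be told apart.

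The region around the start of each gene was searched for the heat shock units, because many members share HSF1 as a known regulator. RefSeq windows of 300 bases (250 before and 50 after a transcript start, assembly GRCh38.p14) were held for 31 of the 36 genes. FKBP4, HSPA14, STUB1, CCT6A and HSF1 had no window. A pair of units was searched as GAANNTTC or TTCNNGAA, each of which reads the same on both strands, and a run of 3 units as GAANNTTCNNGAA or its reverse complement TTCNNGAANNTTC. A run of 3 always holds both kinds of pair. A pair occurred in a window of 16 of the 31 genes (51.6%), against 16.2% of all 27305 genes in the promoter table. A run of 3 occurred for 7 of the 31 genes (22.6%), against 0.608% of all genes. The 7 were HSPA8, HSP90AA1, HSP90AB1, CHORDC1, DNAJA1, DNAJB6 and HSPD1. HSP90AA1, DNAJA1 and DNAJB6 of these fell and the other 4 did not pass the test. Of the 8 genes that fell and had a window, 6 held a pair. Of the 23 that did not pass and had a window, 10 did. FKBP4 fell but had no window, so it is not in these counts. Whether the shares differ was not tested. The members were listed by name as chaperones and heat shock genes, so the excess of units over all genes may follow from the list alone. That excess says nothing of SB216763. A match is a description of the letters and does not show that HSF1 bound there.

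**Figure D2:**
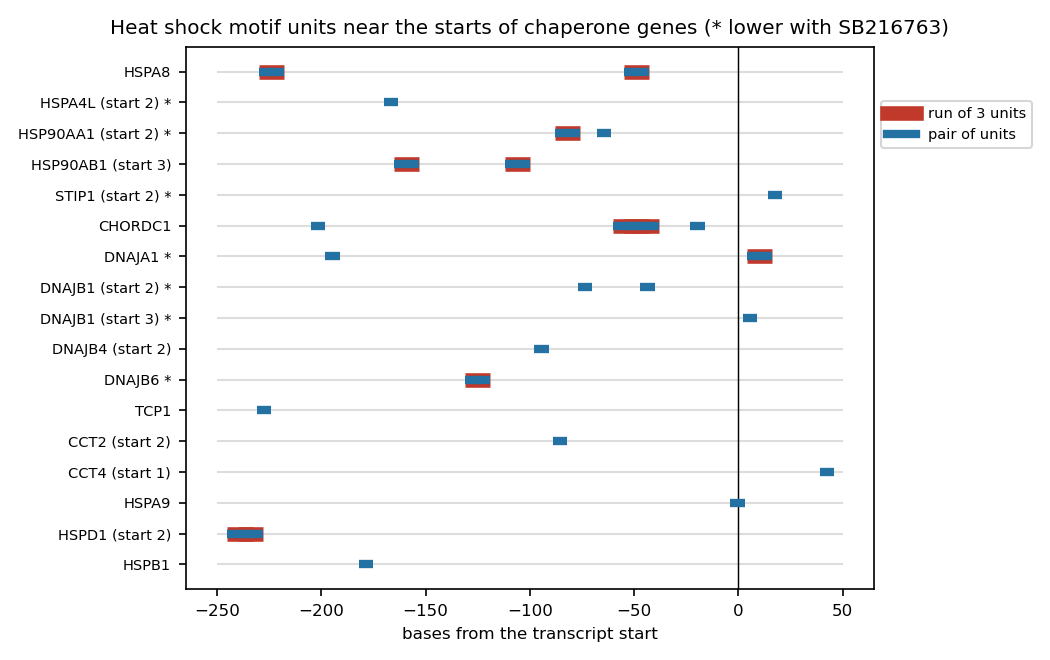
Rows are the transcript starts of chaperone genes that hold at least 1 pair of heat shock units, and the axis is the distance in bases from the start, with upstream to the left. Narrow bars are pairs of units, wide bars runs of 3 units, and stars mark genes that were lower with SB216763. Runs of 3 lie at starts of genes that fell (HSP90AA1, DNAJA1, DNAJB6) and of genes that did not pass (HSPA8, HSP90AB1, CHORDC1, HSPD1).

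Of the 5 measured HSP70 and HSP110 genes, HSPA4L and HSPH1 fell (40.0%, against 5.92% of all genes). The class median was -0.34, and all 5 differences were negative. HSPA4L, an HSP110-type exchange factor, had 7.52, 7.28 and 7.46 on the SB216763 arrays, against 8.46 and 8.35 on the control arrays. It showed the largest fall of the 36 genes, 1.98-fold, a difference of -0.98 (SE 0.10, adjusted p = 0.00133 by limma). The highest SB216763 array lay well under the lower control array. HSPH1, the heat-inducible HSP110, had 10.49, 10.35 and 10.57 on the SB216763 arrays, against 11.03 and 11.09 on the control arrays. It fell 1.51-fold, a difference of -0.59 (SE 0.09, adjusted p = 0.00681 by limma). The RefSeq window of HSPH1 held no pair of heat shock units, and HSPA4L held 1 pair, at position -170 from its second annotated start.

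HSPA4, also an HSP110 gene and the closest relative of HSPA4L in the list, had 10.25, 10.15 and 10.32 on the SB216763 arrays, against 10.45 and 10.57 on the control arrays. Its difference of -0.27 (SE 0.09, adjusted p = 0.0862) did not pass. On each array the log2 difference between HSPA4L and HSPA4 was also taken, and it was lower by 0.71 with SB216763, without overlap between the groups. An exact permutation test over 3 against 2 arrays gave p = 0.2 (two-sided), the smallest this design allows, so it cannot pass the threshold. In this and the other pairs below, a gene that fell was set against 1 that did not pass, with earlier results known. A lower difference therefore follows largely from the choice of pairs and is only a description.

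HSPA8, the constitutive cytosolic HSP70, had 13.56, 13.48 and 13.54 on the SB216763 arrays, against 13.75 and 13.99 on the control arrays. The difference was -0.34 (SE 0.09, adjusted p = 0.0534), or -0.22 without control replicate 2. The groups did not overlap, but the control arrays differed from each other more than the SB216763 arrays did. RefSeq annotates 20 pseudogenes named after HSPA8, so which copy the probe measured is uncertain. HSPA14, a ribosome-associated HSP70, differed by -0.29 (SE 0.08, adjusted p = 0.0523). The window of HSPA8 is shown because it holds 2 runs of 3 units while the gene missed the threshold. The run nearer to the start is printed here from chr11:123062162-123062201 (GRCh38.p14, minus strand), with heat shock units in capitals.
HSPA8: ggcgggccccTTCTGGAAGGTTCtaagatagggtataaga

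Of 7 J-domain genes of the cytosol and nucleus, 3 fell (42.9%, against 5.92% of all genes) and 4 did not pass. The median was -0.11, or -0.06 without SB216763 replicate 2 and -0.21 without SB216763 replicate 3. These genes divided into 3 with differences from -0.53 to -0.38 and 4 from -0.11 to 0.03. DNAJA1, the farnesylated partner of HSP70, had 9.09, 8.78 and 9.01 on the SB216763 arrays, against 9.46 and 9.51 on the control arrays. It fell by 0.53 (SE 0.11, adjusted p = 0.0169 by limma). DNAJB1, the classical stress-inducible HSP40, had 10.51, 10.48 and 10.53 on the SB216763 arrays, against 10.80 and 10.98 on the control arrays, and fell by 0.38 (SE 0.08, adjusted p = 0.0253). DNAJB6, which suppresses aggregation of polyglutamine proteins, had 9.39, 9.35 and 9.49 on the SB216763 arrays, against 9.73 and 9.95 on the control arrays. It fell by 0.43 (SE 0.10, adjusted p = 0.0262), and its second, dimmer probe gave -0.46. In these 3 genes (42.9%, against 19.9% of all genes) every SB216763 array lay under both control arrays. The calls of DNAJB1 and DNAJB6 were lost without SB216763 replicate 1, and that of DNAJB1 also without SB216763 replicate 3.

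DNAJA2, closely related to DNAJA1, had 9.60, 9.48 and 9.79 on the SB216763 arrays, against 9.58 and 9.60 on the control arrays, and the groups overlapped. Its difference was 0.03 (95% interval -0.21 to 0.27). DNAJB4, a relative of DNAJB1, had 7.66, 7.40 and 8.01 on the SB216763 arrays, against 7.66 and 7.83 on the control arrays. Its difference of -0.05 had a wide interval of -0.44 to 0.33, as the SB216763 arrays spread over more than the gap seen for DNAJB1. DNAJC2, a ribosome-bound J protein, differed by -0.11, or -0.06 without SB216763 replicate 2 and -0.07 without control replicate 1. DNAJC7, which binds both HSP70 and HSP90, differed by -0.01, and both had overlapping groups. The array-wise difference between DNAJA1 and DNAJA2 was lower by 0.56 with SB216763 and that between DNAJB1 and DNAJB4 by 0.33 (exact permutation test, two-sided p = 0.2 for each, the smallest possible). The second of these was 0.18 in size without SB216763 replicate 3 and was 0.46 without SB216763 replicate 2.

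The promoter of DNAJB6 is shown as that of a J-domain gene that fell and holds a run of 3 heat shock units before its start (chr7:157336864-157336903, GRCh38.p14, plus strand, units in capitals). The run of DNAJA1 began 4 bases after its start, and DNAJB1 held pairs but no run of 3.
DNAJB6: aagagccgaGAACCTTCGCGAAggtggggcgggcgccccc

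**Figure D3:**
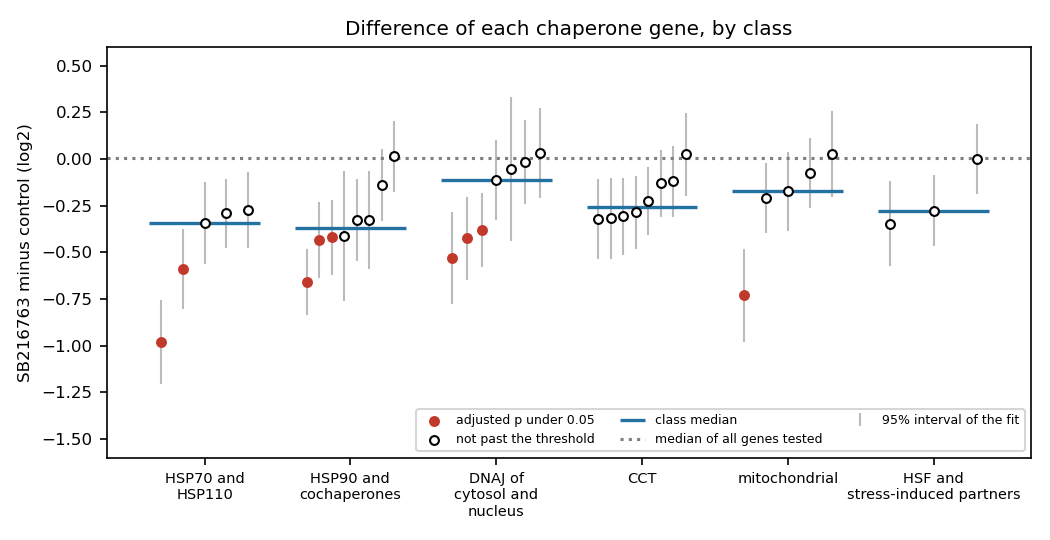
Points are the differences of the 36 chaperone genes, SB216763 minus control in log2, arranged by class, with 95% intervals of the limma fit as vertical lines. Filled points passed an adjusted p of 0.05, long bars are class medians and the dotted line is the median of all genes tested. The class of HSP70 and HSP110 and the class of HSP90 and cochaperones have the lowest medians, -0.34 and -0.37. The CCT class holds no filled point although 7 of its 8 differences are negative.

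Of the 8 measured genes of HSP90 and its cochaperones, 3 fell (37.5%, against 5.92% of all genes) and 5 did not pass. The median was -0.37, the lowest of the classes. After quantile normalization and without control replicate 1 the HSP70 and HSP110 class was lower instead, at -0.45 against -0.40 and -0.47 against -0.41. HSP90AA1, the stress-inducible HSP90 alpha, had 12.36, 12.23 and 12.40 on the SB216763 arrays, against 12.80 and 12.72 on the control arrays. It fell 1.35-fold, a difference of -0.43 (SE 0.09, adjusted p = 0.0168 by limma). HSP90AB1, the constitutive HSP90 beta, had 12.92, 12.85 and 12.93 on the SB216763 arrays, against 12.82 and 12.95 on the control arrays. Its groups overlapped, and its difference was 0.01 (95% interval -0.18 to 0.20), or -0.11 after quantile normalization. On each array the difference between HSP90AA1 and HSP90AB1 was lower by 0.45 with SB216763, without overlap (exact permutation test, two-sided p = 0.2, the smallest possible), and between 0.34 and 0.55 lower with any array left out.

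The sequences before the starts of the 2 HSP90 genes are shown because HSP90AA1 passed the test and HSP90AB1 did not, while both held runs of 3 heat shock units. They are taken from chr14:102087095-102087144 (minus strand) for HSP90AA1 and chr6:44247769-44247848 (plus strand) for HSP90AB1, in GRCh38.p14, with units in capitals. For HSP90AA1 the start is the downstream of 2 annotated starts, and for HSP90AB1 the third of 3. HSP90AA1 held a run of 3 and a separate pair, and HSP90AB1 held 2 separate runs of 3.
HSP90AA1: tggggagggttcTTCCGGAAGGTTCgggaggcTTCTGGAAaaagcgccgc
HSP90AB1: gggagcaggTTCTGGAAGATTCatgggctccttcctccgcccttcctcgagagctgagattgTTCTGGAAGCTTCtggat

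Among the cochaperones, FKBP4 (FKBP52), an immunophilin of steroid receptor complexes, had 10.00, 10.04 and 10.07 on the SB216763 arrays, against 10.72 and 10.67 on the control arrays. It fell 1.58-fold, a difference of -0.66 (SE 0.08, adjusted p = 0.00237 by limma). It had the smallest SE of the genes that fell, with an SD of 0.03 for SB216763 (n = 3) and 0.04 for control (n = 2), and it was the only one of the 36 genes called by an ordinary linear model without moderation. STIP1 (HOP), which links HSP70 to HSP90, had 10.87, 10.80 and 10.88 on the SB216763 arrays, against 11.18 and 11.36 on the control arrays. It fell by 0.42 (SE 0.09, adjusted p = 0.0196). Without SB216763 replicate 1, neither STIP1 nor HSP90AA1 passed.

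The other 4 measured cochaperones had differences from -0.41 to -0.14. Their groups did not overlap, which also held, with SB216763 lower, for 19.9% of all genes. CHORDC1, a zinc-binding HSP90 partner, had 8.34, 7.96 and 8.50 on the SB216763 arrays, against 8.64 and 8.72 on the control arrays. Its difference of -0.41 (SE 0.15) did not pass (adjusted p = 0.124). Replicate 2 of SB216763 lay far under the others, and the difference was -0.26 without it. PTGES3 (p23), which stabilises the closed form of HSP90, differed by -0.33 (adjusted p = 0.109), and STUB1 (CHIP), the ubiquitin ligase that targets chaperone clients, by -0.33 (adjusted p = 0.0603). CDC37, the kinase-specific cochaperone, differed by -0.14 (95% interval -0.33 to 0.05), or -0.21 without control replicate 1 and -0.07 without control replicate 2. The promoter of CHORDC1 is shown because it held the longest stretch of units among the members, 3 overlapping runs and a separate pair (chr11:90223060-90223119, GRCh38.p14, minus strand, units in capitals).
CHORDC1: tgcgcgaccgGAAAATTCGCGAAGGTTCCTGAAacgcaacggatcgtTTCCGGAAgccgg

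The 8 subunits of the CCT chaperonin were all measured, and 0 of them passed the test (limma), while 5 (62.5%) were lower and 0 higher at an unadjusted p under 0.05, against 12.2% of all genes lower. Their median was -0.26, and 7 of the 8 differences were negative. TCP1 (the alpha subunit) had 13.03, 12.93 and 13.09 on the SB216763 arrays, against 13.26 and 13.39 on the control arrays, a difference of -0.31 (adjusted p = 0.0623). CCT2 and CCT5 both differed by -0.32 (adjusted p = 0.0591 and 0.0645), CCT7 by -0.29 (0.0648) and CCT3 by -0.23 (0.105). CCT4 differed by -0.13, or -0.08 without control replicate 2. CCT8 differed by -0.12, or -0.18 without control replicate 1 and -0.06 without control replicate 2. In these 7 subunits (87.5%, against 19.9% of all genes) each SB216763 array lay under both control arrays, though for CCT8 by little (9.91, 9.82 and 9.88, against 9.92 and 10.05). CCT6A was the exception, with 11.49, 11.34 and 11.53 on the SB216763 arrays, against 11.35 and 11.51 on the control arrays. Its difference was 0.03 (95% interval -0.20 to 0.25). TCP1, CCT2, CCT5 and CCT7 passed in the 5 other settings that called 18 to 21 members.

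Of the 5 mitochondrial chaperone genes, HSPE1 alone passed the test (20.0%, against 5.92% of all genes called lower). The class median was -0.17, or -0.27 without control replicate 1 and -0.06 without control replicate 2. HSPE1, the small lid subunit (HSP10) of the mitochondrial chaperonin, had 7.50, 7.72 and 7.79 on the SB216763 arrays, against 8.32 and 8.47 on the control arrays. It fell 1.66-fold, a difference of -0.73 (SE 0.11, adjusted p = 0.00554 by limma). HSPD1, the large barrel subunit (HSP60) that works with it, had 11.75, 11.64 and 11.78 on the SB216763 arrays, against 11.57 and 11.82 on the control arrays. The SB216763 arrays lay between the control arrays, and the difference was 0.03 (95% interval -0.20 to 0.26). The array-wise difference between HSPE1 and HSPD1 was lower by 0.76 with SB216763, without overlap (exact permutation test, two-sided p = 0.2, the smallest possible). RefSeq annotates 28 pseudogenes named after HSPE1 and 22 named after HSPD1, the highest numbers among the members counted. Which copies the probes measured is therefore uncertain, and the part of these copies in the difference was not tested. Of the 9 members that fell, 6 had at least 1 pseudogene by this count. Besides HSPE1 these were DNAJB6 (8), DNAJA1 (6), FKBP4 (5), STIP1 (3) and DNAJB1 (2), and the same uncertainty holds for their probes.

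HSPE1 and HSPD1 lie head to head on chromosome 2, with 104 bases between the start of HSPE1 and the first annotated start of HSPD1. That shared stretch is shown because it precedes both genes, of which HSPE1 passed the test and HSPD1 did not. It is given on the strand of HSPE1 (chr2:197500275-197500378, GRCh38.p14), with the E-box CACGTG, a motif bound by MYC and related factors that reads the same on both strands, in capitals. The E-box occurred in a window of 3 of the 31 genes (9.68%), near the 8.77% of all genes. The 3 were HSPE1, HSPD1 and HSPA9, all mitochondrial, but HSPE1 and HSPD1 were counted for the same single site in the shared stretch. The shared stretch held no pair of heat shock units, but a run lay 189 bases beyond the first start of HSPD1 and 294 bases from the start of HSPE1. It is printed on the strand of HSPD1 (chr2:197500061-197500090), with units in capitals.
HSPE1: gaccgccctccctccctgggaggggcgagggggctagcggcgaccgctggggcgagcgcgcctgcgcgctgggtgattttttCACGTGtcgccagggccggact
HSPD1: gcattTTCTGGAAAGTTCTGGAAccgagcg

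HSPA9 (mortalin), the mitochondrial HSP70, had 11.83, 11.78 and 11.86 on the SB216763 arrays, against 11.98 and 12.09 on the control arrays. The groups did not overlap, but the difference of -0.21 did not pass (adjusted p = 0.144). TRAP1, the mitochondrial HSP90, differed by -0.17 (adjusted p = 0.285), or -0.29 without control replicate 1 and -0.06 without control replicate 2. A second, much dimmer probe of TRAP1 went the other way, at 0.12. DNAJA3, the mitochondrial J protein, differed by -0.07 with overlapping groups, or -0.04 without control replicate 2.

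**Figure D4:**
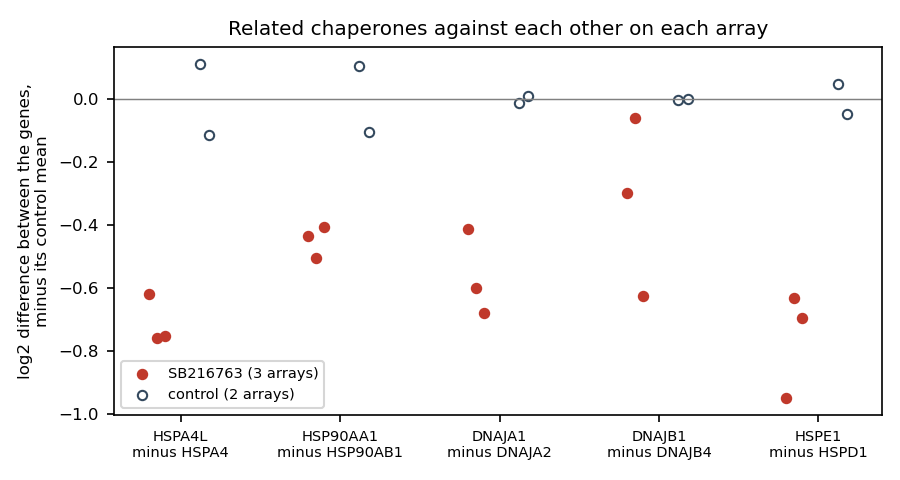
For 5 pairs of related chaperones, the vertical axis is the log2 difference between the first and second gene on each array, minus its mean over the control arrays. Filled points are the 3 SB216763 arrays and open points the 2 control arrays. All SB216763 points lie under the control points of their pair, by the least for DNAJB1 and DNAJB4, where 1 array is at -0.06. In each pair the first gene was called lower and the second was not, so lower points follow largely from the choice of pairs.

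HSF1, the master regulator of the heat shock response, had 9.45, 9.42 and 9.32 on the SB216763 arrays, against 9.37 and 9.43 on the control arrays. Its difference was 0.00 (95% interval -0.19 to 0.19), and the groups overlapped. The array measures transcript and says nothing of HSF1 protein or its phosphorylation. HSPB1 (HSP27), a small heat shock protein, had 9.44, 9.49 and 9.23 on the SB216763 arrays, against 9.75 and 9.72 on the control arrays, a difference of -0.35 (adjusted p = 0.0577). BAG3, which hands HSP70 clients to autophagy, differed by -0.28 (adjusted p = 0.0683). For both, every SB216763 array lay under the control arrays, which also held for 19.9% of all genes.

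Within the SB216763 group, replicate 2 was the lowest array for 25 of the 36 chaperone genes, and control replicate 2 was the higher control array for 31 of 36. Over the 12071 genes above background on all arrays, SB216763 replicate 2 was the lowest of its group for 5808 and control replicate 2 the higher control for 8191. The median of the 36 genes relative to their control means was -0.26, -0.31 and -0.22 on the SB216763 arrays, against -0.06 and 0.06 on the control arrays. The median of all genes on the same scale was -0.00, 0.04 and -0.02 on the SB216763 arrays, against -0.02 and 0.02 on the control arrays.

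Other genes of the chaperone network were read from a wider list of 108 genes, of which 98 were measured. Of these, 11 fell (11.2%, against 5.92% of all genes) and 5 rose (5.10%, against 7.21% of all genes), and the median was -0.08. Most of the 98, 81, were above background on all arrays. Among all genes above background on all arrays, 8.51% were called lower and 9.73% higher. The 18 other HSP90 cochaperones held 6 of the genes that fell (33.3%, against 5.92% of all genes) and 0 that rose (against 7.21%). Their median was -0.22. PIH1D1, of the R2TP complex that assembles large protein machines with HSP90, fell by 0.82 (SE 0.08, adjusted p = 0.00129). The ATPases RUVBL1 and RUVBL2 of the same complex also fell. RUVBL1 fell by 0.62 (adjusted p = 0.00681) and RUVBL2 fell by 0.47 (adjusted p = 0.0115). RPAP3, a further subunit of the complex named after its values were seen, did not pass. Its difference was -0.14 (adjusted p = 0.675 by limma), and its groups overlapped. PIH1D1 had 8.37, 8.29 and 8.42 on the SB216763 arrays, against 9.19 and 9.17 on the control arrays, so its groups did not overlap. NUDC, TELO2 and NUDCD1, named after their values were seen, made up the other 3 that fell, with differences of -0.51, -0.42 and -0.40.

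Of 12 other HSP70 genes and exchange factors, BAG2 and HSPA2 fell (16.7%, against 5.92% of all genes). They fell by 0.34 (adjusted p = 0.0240) and 0.40 (adjusted p = 0.0444), and HSPBP1 differed by -0.36 (adjusted p = 0.0573). The stress-inducible HSPA1A and HSPA1B had no probe of their own and were not analysed here. Of 31 other J-domain genes, 2 fell (6.45%, against 5.92% of all genes) and 4 rose (12.9%, against 7.21% of all genes), and the median was 0.09. DNAJC4 rose by 0.64 (SE 0.08, adjusted p = 0.00280). DNAJC19, of the mitochondrial import motor, fell by 0.57 (SE 0.09, adjusted p = 0.00843). DNAJC28 passed as higher, but it stayed under background on all 5 arrays, so no fold is given. DNAJB2 and DNAJC13, which both differed by 0.40, and DNAJC9, which differed by -0.37, also passed and were named after their values were seen. Of 14 genes of prefoldin and of tubulin or CCT cofactors, 1 rose (7.14%, against 7.21% of all genes). It was PFDN5, a prefoldin subunit, which rose by 0.48 (adjusted p = 0.0112). PFDN1 and PFDN6 differed by -0.28 and -0.26 (adjusted p = 0.0545 and 0.0736). Among 11 small heat shock and HSF-related genes the limma calls numbered 0, also without adjustment at p under 0.05 (UBB -0.18 and HSBP1 -0.15). Only 5 of the 11 were above background on all arrays. CRYAB, HSPB3, HSPB7, HSPB8, HSPB9 and HSF5 were above it on none, so their lack of calls says nothing of a response. Of 12 other mitochondrial chaperones and proteases, 1 fell (8.33%, against 5.92% of all genes and 8.51% of genes above background on all arrays). It was GRPEL2, a nucleotide exchange factor of mortalin, which fell by 0.31 (adjusted p = 0.0363). GRPEL1 and PHB1 differed by -0.28 and -0.27 (adjusted p = 0.0582 and 0.0628). By scaling, the split of 11 lower and 5 higher became 17 and 5 with each array centred and 21 and 5 after quantile normalization. The share of all genes called lower was also larger then, at 7.51% and 8.35%, against 5.92%. Of all 18417 genes, 1146 and 1345 were called higher in these settings, against 1328. With either control array left out limma called 0 of the 98. At an unadjusted p under 0.05, 22 were then lower and 7 higher without control replicate 1, and 14 lower and 7 higher without control replicate 2. These are 22.4% lower and 7.14% higher without control replicate 1, against 10.3% and 9.24% of all genes, and 14.3% lower and 7.14% higher without control replicate 2, against 8.98% and 12.5% of all genes.

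**Figure D5:**
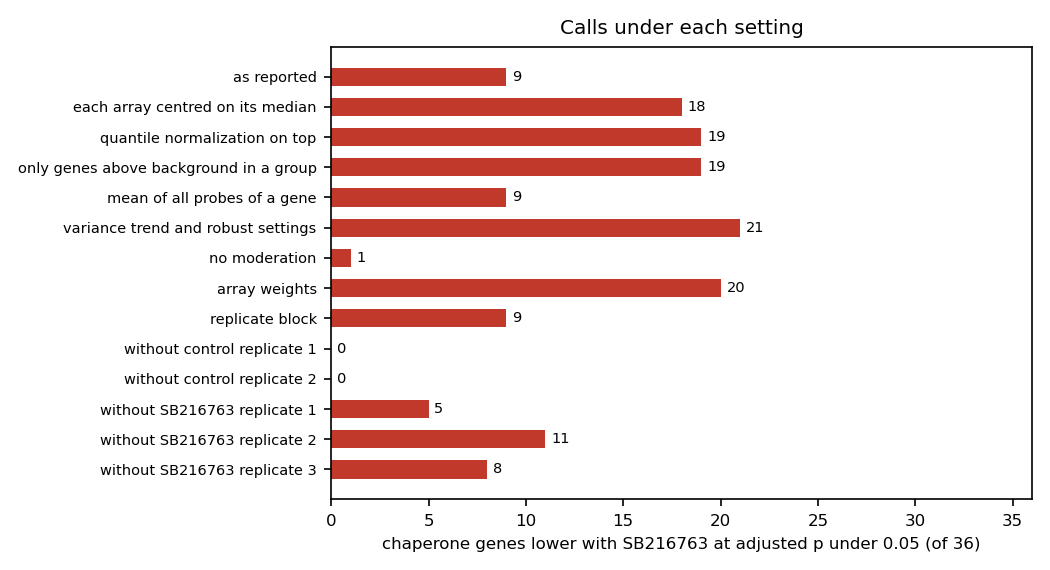
Bars give the number of the 36 chaperone genes called lower with SB216763 at an adjusted p under 0.05 under each setting of the fit. Of all genes, 5.92% were called lower as reported and 7.81% with a variance trend. The count is 9 as reported, reaches 21 with a variance trend and is 0 without either control array.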

How the data were processed

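The authors deposited 1 table of log2 expression values for the 5 arrays. Per the submitters' processing notes the tool was Affymetrix Expression Console; the software version, the array build and how probes were summarised are not stated in any source used. That the values are log2 follows from their range, 1.95 to 14.84. No further normalization was applied. Of 33297 probes, 19460 named exactly 1 gene in the platform annotation and were used, 1754 named several and 12083 none. Where a gene had several probes, the brightest on average was taken. Groups and replicate numbers came from the titles. The comparison of SB216763 and control used R 4.3.3 and limma 3.58.1 (lmFit, eBayes, 7.62 total degrees of freedom), two-sided, with Benjamini-Hochberg adjustment over 18417 genes. The procedure was tested on simulated data. The 5 related pairs (2 of 7 planned lacked a probe) were compared by exact permutation over arrays (scipy 1.17.1), and all 5 gave a Benjamini-Hochberg adjusted p of 0.2. Promoters came from RefSeq, and pseudogenes were counted where their symbol is the member's followed by P and a number. HSP90 pseudogenes follow another naming scheme and were not counted. No protein sequences were used here. Members, gene lists and tests were chosen with earlier results of these data known. All 39 members could be named, and of each wider sublist the 3 with the smallest p. The number of arrays limits the precision. Alternatives were another scaling, a filter on dim genes, the mean of probes, other variance models, array weights, a replicate block and each array left out; with 1 control array left, its spread was taken from the SB216763 arrays.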

Additional observations from a re-analysis of the deposited data

How the results depend on the processing

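The number of chaperone genes called lower was 9 of 36 as reported, where 5.92% of all genes were called lower. In brackets below is the share of all genes called lower in each setting. The number was 18 with arrays centred (7.51%), 19 after quantile normalization (8.35%) and 19 among genes above background in a group (11.6%). It was 21 with a variance trend (7.81%), 20 with array weights (11.7%) and 1 without moderation (0.679%). Each of the 5 larger sets held all 9. Leaving out an array gave 0 to 11, 0 without either control array. The count of all genes called was 251 without moderation and 4720 with array weights, and 0 to 2859 with an array left out. No member was called higher under any of these 13 settings. The median difference of the members ran from -0.33 after quantile normalization to -0.22 without control replicate 2. The mitochondrial median was -0.07 with the mean of probes, -0.27 without control replicate 1 and -0.06 without control replicate 2, and the DNAJ median -0.06 without SB216763 replicate 2 and -0.21 without SB216763 replicate 3. No pair difference changed sign with the mean of probes or with an array left out, the alternatives run for pairs. With the replicate block 9 were called lower (against 4.83% of all genes), 8 of them shared, DNAJB1 being lost and CHORDC1 gained. Same-numbered arrays correlated at -0.03 and -0.11, so the numbers were not taken to pair the arrays. Sign changes occurred only in genes that did not pass. With arrays centred HSP90AB1 was -0.022, HSPD1 -0.0085, HSF1 -0.035, DNAJA2 -0.0028 and CCT6A -0.010. After quantile normalization HSP90AB1 was -0.11, HSPD1 -0.072, HSF1 -0.018 and CCT6A -0.014. With array weights DNAJC7 was 0.017, and with the replicate block HSPD1 was -0.0005, DNAJA2 -0.051 and CCT6A -0.014. With an array left out, HSP90AB1 ran from -0.051 to 0.078, HSPD1 from -0.096 to 0.15, HSF1 from -0.033 to 0.037, DNAJA2 from -0.051 to 0.11, CCT6A from -0.053 to 0.10, DNAJB4 from -0.21 to 0.092 and DNAJC7 from -0.072 to 0.060. The causes were not tested.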
